A study of Mus musculus with 20 samples.

Results

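The Myc, Max and MXD network was followed through 8 genes, Myc, Max, Mxd1, Mxd3, Mxd4, Mxi1, Mnt and Mlx, chosen by membership of the network, out of 23992 genes listed in the RNA-seq tables. The study asked how regulatory T cells (Tregs) and CD8+ T cells of mouse spleen and lymph node respond to IL-2 and to IL-2-REH, an engineered IL-2 with weakened receptor assembly that acts as a partial agonist. Tregs came from B6-Foxp3EGFP mice, which mark Foxp3-expressing cells with a green fluorescent protein, by magnetic isolation of CD4+ T cells followed by sorting on that protein, and CD8+ T cells came from C57BL/6J mice by magnetic isolation without a sort. Each cell type was measured unstimulated (0 h, no cytokine) and after 200 nM IL-2 or 200 nM IL-2-REH for 90 min (labelled 1.5 h) or 4 hr, with 3 Treg libraries per group (15 in all) and 1 CD8+ library per group (5 in all). The labels call every sample C57BL/6N, whereas the protocol names the strains above, and no source says whether the Treg replicates came from separate mice, so the p-values measure only the spread between these samples. No sample was cultured without cytokine, so in every comparison with unstimulated cells the cytokine and the time after isolation cannot be told apart, and the cell types differed in strain and isolation as well.

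Reads on genes ranged from 20201392 to 63903764 per library. The summed RPKM (read counts scaled to transcript length and to mapped reads) of 5 Treg markers was 505 to 1061 in Tregs and 12.6 to 28.3 in CD8+ T cells, and that of 2 CD8+ markers was 4.46 to 12.7 and 282 to 728, which matched the labels. The sum of 7 erythroid markers was 6.90 to 301 in Tregs and highest in the 5 libraries of replicate 3. That of 8 macrophage or monocyte markers was 8.15 to 80.2, with 16.6, 80.2 and 60.9 in the 3 unstimulated Treg libraries. At most 1 of 7 and 2 of 8 of these markers were at 0 in a Treg library, and their part in the results was not tested. Unstimulated Treg replicate 1 stood apart from its group. Its correlation across 15009 genes with replicates 2 and 3 was 0.917 and 0.918, against 0.984 between those 2, and 1953 and 1435 genes differed from them by more than 2-fold, more than between those 2. Every comparison with unstimulated Tregs is therefore given with and without that library where the call differed.

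Myc is a basic helix-loop-helix leucine zipper factor that binds DNA only as a heterodimer with Max and activates genes of ribosome assembly, metabolism and the cell cycle. Mxd1, Mxd3, Mxd4, Mxi1 and Mnt also pair with Max, recruit Sin3 co-repressors and compete with Myc for the same sites, while Mlx pairs with some of these repressors and with the glucose-sensing MondoA and ChREBP proteins. In T cells Myc is known as an early target of IL-2 receptor signaling and as a factor that governs growth and division, and the MXD proteins are known from cells that leave the cycle and differentiate.

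In the GRCm38 annotation Myc lies on the plus strand of chr15:61985341-61990361, Max on the minus strand of chr12:76937269-76962323, Mxd1 on the minus strand of chr6:86647044-86669234, Mxd3 on the minus strand of chr13:55325170-55329900 and Mxd4 on the minus strand of chr5:34176580-34187710. Mxi1 lies on the plus strand of chr19:53310128-53373293, Mnt on the plus strand of chr11:74830806-74845725 and Mlx on the plus strand of chr11:101086707-101092207. Values count reads over all exons of 1 transcript per gene. Genes on the opposite strand share 7.91% of the annotated exon bases of Mxd3 (Prelid1), 13.3% of Mxd4 (Gm42846), 7.38% of Mxi1 (Gm10197) and 19.6% of Mlx (Psmc3ip). These exon totals are not those of the counted transcripts, at 3872 against 1179 bases for Mxd4 and 2627 against 5156 for Mxi1. The share of the counted bases that overlap was not measured. The counting is not stated to use strand, so reads in such overlaps cannot be assigned to 1 strand. Prelid1 averaged 108 RPKM and Psmc3ip 1.52 in Tregs, and the levels of the other overlapping genes were not compared.

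Myc-Max and MXD-Max dimers bind the E-box CACGTG, which reads the same on both strands. RefSeq promoters (GRCm38.p6, 250 bases before to 50 bases after a start) were listed for 7 of the 8 members, all but Myc. Of these, 4 of 7 (57.1%) held CACGTG, compared with 7.15% of all 32851 promoters and 11% of the genes tested in Tregs that had a listed promoter. The 4 are shown because they carry the network's own binding word, in capitals, with 20 bases on either side on the gene's strand.
Mxd4: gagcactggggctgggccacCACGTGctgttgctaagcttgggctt
Mnt: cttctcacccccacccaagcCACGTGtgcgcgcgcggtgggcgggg
Mlx: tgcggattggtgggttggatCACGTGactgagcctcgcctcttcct
Max: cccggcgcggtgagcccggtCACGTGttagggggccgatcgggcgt
These windows are chr5:34187904-34187949 (minus strand) for Mxd4, chr11:74830781-74830826 (plus) for Mnt, chr11:101087230-101087275 (plus) for Mlx and chr12:76962226-76962271 (minus) for Max. Relative to the start site the word begins at base -219 in Mxd4, -123 in Mnt, -40 in Mlx and -3 in Max. The listed promoters of Mxd1, Mxd3 and Mxi1 did not hold these letters, and a match is a description of the sequence and not a measured site.

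The network genes were expressed at very different levels, and all levels here are RPKM, which is scaled by transcript length. Over the 15 Treg libraries the median was 57.2 for Mxd1, 38.8 for Max, 38.4 for Myc, 33.3 for Mxd4, 18.9 for Mxi1, 14.8 for Mnt, 10.6 for Mlx and 0.818 for Mxd3. The ranges of neighbours in that order overlapped from Mxd1 down to Mlx, and Mxd3, with 22 to 207 reads per Treg library, was below 2 in every library. In the 5 CD8+ libraries the medians were 37.6 for Max, 32.3 for Myc, 16.8 for Mxd4, 12.8 for Mlx, 11.1 for Mnt, 9.12 for Mxd1, 3.98 for Mxi1 and 0.478 for Mxd3. Mxd1, with the highest median in Tregs, was the sixth in CD8+ T cells. Max varied least in Tregs, 1.59-fold between its lowest and highest library, and Myc most, 9.75-fold.

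**Figure D1:**
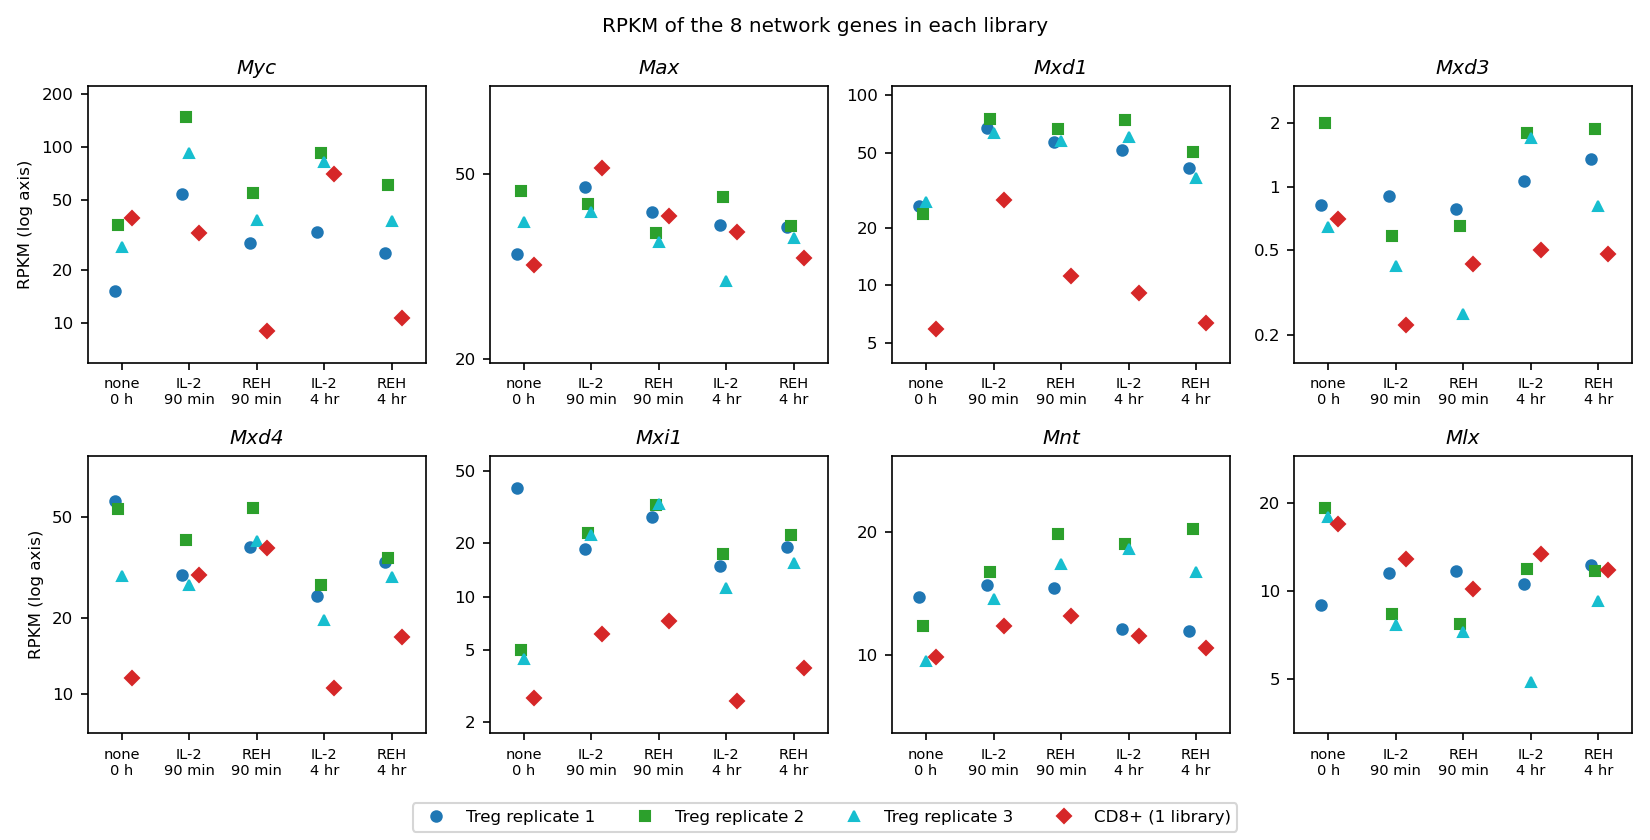
RPKM on a log axis of each network gene in every library by condition, with the 3 Treg replicates as circles, squares and triangles and the single CD8+ library of each condition as a diamond (REH stands for IL-2-REH). Mxd1 was higher in all stimulated Treg libraries than in the 3 unstimulated ones, Mxi1 in unstimulated Treg replicate 1 (40.4) lay far above replicates 2 and 3, and the CD8+ diamonds of Myc after IL-2-REH (8.98 and 10.8) lay below every Treg library.

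Myc was higher in Tregs after IL-2, and less so after IL-2-REH. Unstimulated Tregs of replicates 1, 2 and 3 had 15.2, 35.9 and 27.1 RPKM of Myc. After IL-2 these were 53.8, 148 and 92.4 at 90 min and 32.96, 92.3 and 82.0 at 4 hr. All 3 libraries at 90 min were above all 3 unstimulated ones, whereas at 4 hr replicate 1 overlapped them. IL-2-REH gave 28.5, 54.7 and 38.4 at 90 min and 25.1, 60.6 and 38.2 at 4 hr, and both groups overlapped the unstimulated range. Within each replicate number, however, every stimulated library was above its unstimulated partner, by 3.41- to 4.12-fold and 2.17- to 3.02-fold with IL-2 and by 1.41- to 1.88-fold and 1.41- to 1.69-fold with IL-2-REH at 90 min and 4 hr. In bulk RNA a change in the number of cells expressing a gene and a change in RNA per cell cannot be told apart.

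The edgeR quasi-likelihood fit across all genes gave a log2 fold change of Myc of 2.13 ± 0.48 (SE, n = 3 per group) after IL-2 for 90 min, with an adjusted p of 0.0606. After 4 hr it was 1.51 ± 0.47, with an edgeR adjusted p of 0.12, so neither passed the threshold of 0.05. DESeq2, with the same 15 libraries and no block, called Myc at both times of IL-2 (background 4.54% and 6.84%). Replicate 2 was the highest and replicate 1 the lowest for Myc in all 5 Treg groups. With the replicate number added to the fit as a block, Myc rose by 2.02 ± 0.20 at 90 min (edgeR adjusted p = 0.000198) and by 1.44 ± 0.20 at 4 hr (edgeR adjusted p = 0.00118). The value at 90 min also passed without unstimulated replicate 1 (1.91, edgeR adjusted p = 0.0367). For IL-2-REH the log2 fold changes of Myc were 0.84 ± 0.47 at 90 min and 0.69 ± 0.47 at 4 hr (edgeR adjusted p = 0.501 and 0.567), and with the block 0.80 and 0.66 (edgeR adjusted p = 0.152 and 0.0834). Without unstimulated replicate 1 and with the block, Myc passed after IL-2-REH as well, at 0.93 (edgeR adjusted p = 0.0043) and 0.79 (edgeR adjusted p = 0.0172).

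Max, the shared partner, stayed close to its unstimulated level. It was 33.6, 46.0 and 39.4 RPKM in unstimulated Tregs and 29.5 to 46.9 over the 15 Treg libraries, with every group overlapping the unstimulated one. Its log2 fold change was 0.29 (95% interval -0.00 to 0.59) after IL-2 for 90 min, and the other intervals against unstimulated cells lay within -0.35 to 0.39.

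Mxd1, which encodes the repressor Mad1, was the network gene with the firmest change in Tregs. It measured 26.2, 23.8 and 27.4 RPKM unstimulated, 67.6, 74.7 and 63.3 after IL-2 for 90 min and 51.9, 74.4 and 60.5 after IL-2 for 4 hr. With IL-2-REH it was 57.2, 66.6 and 57.4 at 90 min and 41.3, 50.6 and 36.9 at 4 hr. None of the 4 stimulated groups overlapped the unstimulated one, and replicate 1 did not stand apart for this gene. Mxd1 rose by 1.54 ± 0.20 on the log2 scale after IL-2 for 90 min (2.91-fold, edgeR adjusted p = 0.00174), by 1.32 ± 0.20 after IL-2 for 4 hr (edgeR adjusted p = 0.00402) and by 1.36 ± 0.20 after IL-2-REH for 90 min (edgeR adjusted p = 0.0246). After IL-2-REH for 4 hr its log2 fold change was 0.72 ± 0.20 (edgeR adjusted p = 0.143, and 0.0676 with the block), which passed when unstimulated replicate 1 was left out (0.81, edgeR adjusted p = 0.0405). Leaving out all libraries of replicate 2 or of replicate 3 ended the first 3 calls (0 to 11 genes in all were called in those fits), with log2 fold changes of 1.13 to 1.55 and edgeR adjusted p values of 0.148 to 1. The IL-2-REH call was also lost without unstimulated replicate 2 (edgeR adjusted p = 0.11) or replicate 3 (edgeR adjusted p = 0.238), with limma, and when only the groups compared were fitted, which ended the IL-2 call at 4 hr as well (edgeR adjusted p = 0.117).

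Mxi1, another MXD repressor, showed how much the unstimulated library of replicate 1 decided. Unstimulated Mxi1 was 40.4 RPKM in replicate 1 but 5.05 and 4.46 in replicates 2 and 3. IL-2 gave 18.5, 22.5 and 22.1 at 90 min and 14.8, 17.4 and 11.2 at 4 hr, while IL-2-REH gave 27.7, 32.5 and 32.9 and then 18.9, 22.2 and 15.4. The stimulated libraries thus all lay between the unstimulated values, with no call against unstimulated cells (log2 fold changes -0.26 to 0.93, edgeR adjusted p = 0.589 to 0.98). Without unstimulated replicate 1, Mxi1 was 2.39 higher on the log2 scale after IL-2 for 90 min (edgeR adjusted p = 0.000105), 2.94 higher after IL-2-REH for 90 min (edgeR adjusted p = 3.14e-05), and 1.74 and 2.06 higher at 4 hr (edgeR adjusted p = 0.00128 and 0.000712).

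Mxd4, a further member of the repressor family, was lower after 4 hr of IL-2. It was 58.0, 54.1 and 29.2 RPKM unstimulated and 24.4, 27.1 and 19.7 after IL-2 for 4 hr, and these groups did not overlap. Its log2 fold change was -0.93 ± 0.27 (edgeR adjusted p = 0.0885), and with the block it fell by 0.92 (edgeR adjusted p = 0.0457). DESeq2 called it with all 15 libraries and no block (background 6.84%). Without unstimulated replicate 1 the blocked value was -0.54 (edgeR adjusted p = 0.0847). The other groups, at 29.6, 40.8 and 27.1 after IL-2 for 90 min, 38.1, 54.6 and 40.4 after IL-2-REH for 90 min and 33.3, 34.4 and 29.0 after IL-2-REH for 4 hr, overlapped the unstimulated one.

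Mnt, the widely expressed antagonist, and Mlx, the partner of the sugar-sensing branch, moved in opposite directions in replicates 2 and 3. Mnt was 13.9, 11.7 and 9.68 RPKM unstimulated and 11.4 to 20.3 over the stimulated libraries, and Mlx was 8.98, 19.2 and 17.9 unstimulated and 4.90 to 12.3 over the stimulated ones. In replicates 2 and 3 every stimulated library was above its unstimulated partner for Mnt and below it for Mlx, which did not hold in replicate 1. Neither was called with all 15 libraries, where Mnt had log2 fold changes of 0.41 to 0.67 and Mlx of -0.68 to -0.44. With the block and without unstimulated replicate 1, Mnt rose by 0.80 to 1.06 (edgeR adjusted p at most 0.00456) and Mlx fell by 0.79 to 1.05 (edgeR adjusted p at most 0.0274) in all 4 comparisons. That fit called 16.7% to 26.9% of all genes. Without that library but with no block, Mnt was called only after IL-2-REH for 90 min. Mlx was then not called after IL-2 for 90 min or IL-2-REH for 4 hr. Mxd3, known from dividing cells, was between 0.249 and 1.99 RPKM and had no call against unstimulated cells in any of these fits.

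**Figure D2:**
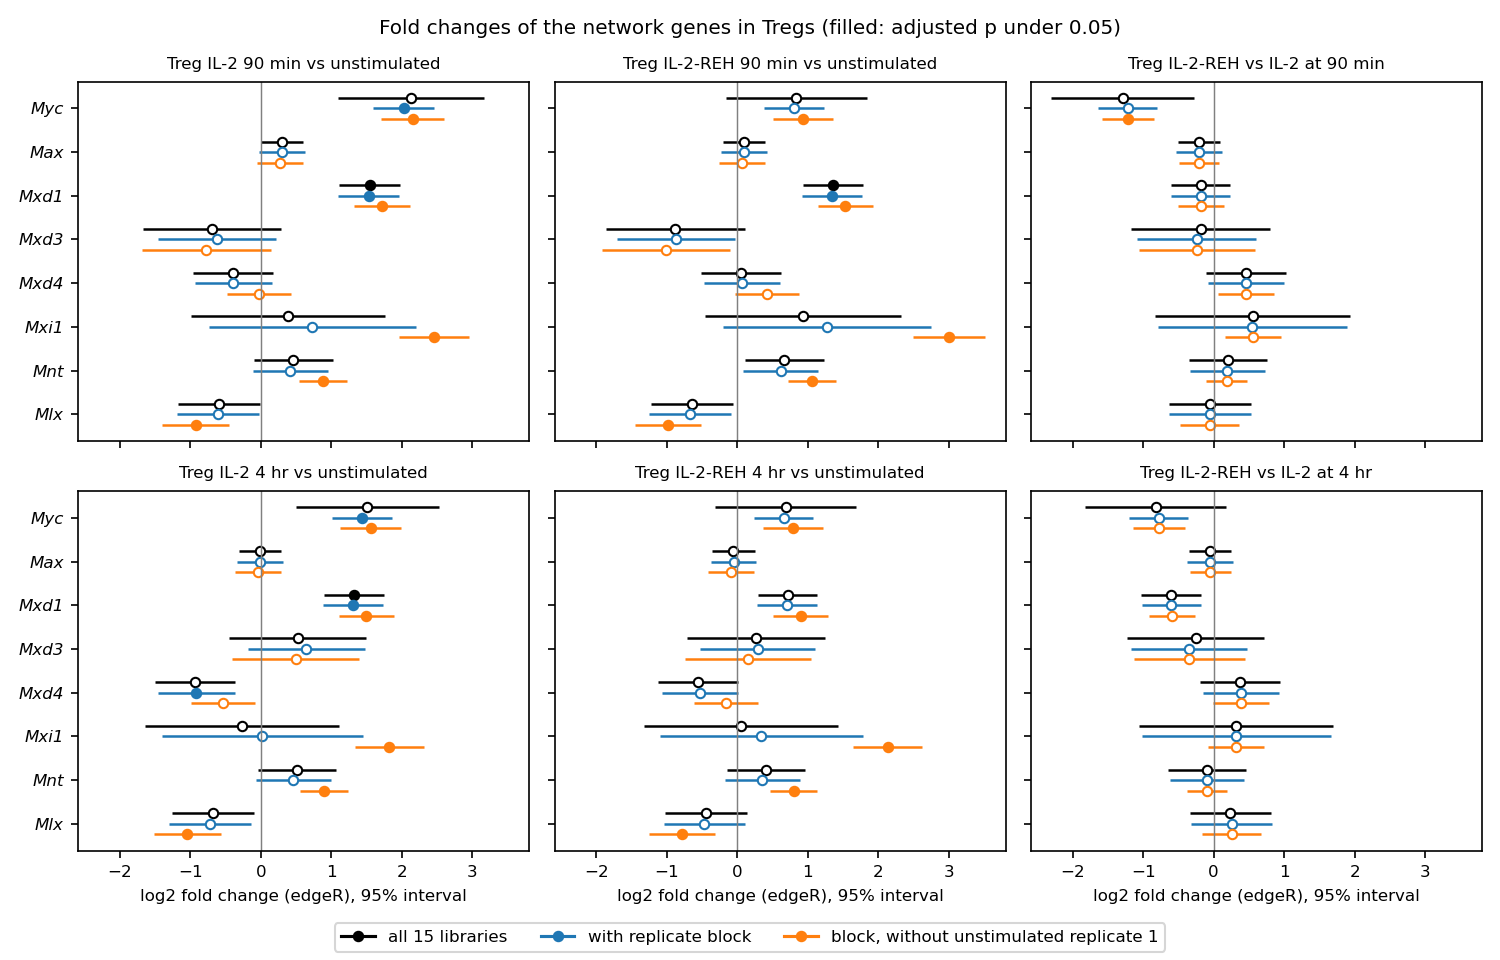
Log2 fold changes of the 8 genes in Tregs with 95% intervals, from edgeR with all 15 libraries (black), with the replicate block (blue) and with the block but without unstimulated replicate 1 (orange). Filled points passed an adjusted p of 0.05, which without the block and with all 15 libraries held for Mxd1 alone, in 3 of the 6 comparisons drawn.

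The stimulated and unstimulated groups did not overlap for 2 of 8 genes after IL-2 for 90 min (Myc and Mxd1, where 12.7% of all genes did not) and 2 of 8 after IL-2 for 4 hr (Mxd1 and Mxd4, background 14.7%). They did not overlap for 2 of 8 after IL-2-REH for 90 min (Mxd1 and Mnt, background 9.97%) and 1 of 8 after IL-2-REH for 4 hr (Mxd1, background 13.7%). By test, 1 of 8 network genes (Mxd1) was called against unstimulated Tregs after IL-2 for 90 min, where 0.853% of the 15009 genes tested were called in either direction, and 1 of 8 after IL-2 for 4 hr against 2.27%. It was also 1 of 8 after IL-2-REH for 90 min against 0.0933%, and 0 of 8 after IL-2-REH for 4 hr against 0.313%. Unadjusted edgeR p values under 0.05 were found for 3 of 8 after IL-2 for 90 min (Myc, Mxd1 and Mlx, background 13.8%). At 4 hr of IL-2 there were 4 of 8 (Myc, Mxd1, Mxd4 and Mlx, background 17.7%). After IL-2-REH there were 3 of 8 at 90 min (Mxd1, Mnt and Mlx, background 11.4%) and 1 of 8 at 4 hr (Mxd1, background 13.3%). In the same order DESeq2 called 2 (Myc and Mxd1, background 4.54%), 3 (Myc, Mxd1 and Mxd4, background 6.84%), 1 (Mxd1, background 0.867%) and 1 (Mxd1, background 4.29%). With the replicate block the edgeR counts were 2 (Myc and Mxd1, background 1.83%), 3 (Myc, Mxd1 and Mxd4, background 6.92%), 1 (Mxd1, background 0.213%) and 0 (background 3.03%). With the block and without unstimulated replicate 1, 5 of 8 were called in each of these 4 comparisons (Myc, Mxd1, Mxi1 and Mnt higher, Mlx lower), but 26.9%, 21%, 25.4% and 16.7% of all genes were then called as well. The 4 comparisons share their unstimulated libraries and are not independent of each other.

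Setting the partial agonist against IL-2 at the same time and dose does not involve the unstimulated libraries. In Tregs Myc was lower with IL-2-REH in all 3 same-numbered pairs at both times, with IL-2-REH to IL-2 ratios of 0.530, 0.370 and 0.415 at 90 min and 0.762, 0.657 and 0.466 at 4 hr. Mxd1 was also lower in all 3 pairs, with ratios of 0.846, 0.891 and 0.906 at 90 min and 0.795, 0.680 and 0.610 at 4 hr, and its groups at 4 hr did not overlap. Mxd4 and Mxi1 were higher with IL-2-REH in all 3 pairs at both times. The ratios of Mxd4 were 1.29, 1.34 and 1.49 and then 1.37, 1.27 and 1.48, and those of Mxi1 were 1.50, 1.44 and 1.48 and then 1.28, 1.28 and 1.37. At 90 min the 3 IL-2-REH libraries of Mxi1 all lay above the 3 IL-2 libraries, and at 4 hr those of Mxd4 did. Groups that did not overlap were thus found for 1 of 8 genes at 90 min (Mxi1, background 5.46%) and 2 of 8 at 4 hr (Mxd1 and Mxd4, background 7.79%). Including Max, lower in 3 pairs at 90 min, 5 of 8 network genes kept 1 direction over the 3 pairs at 90 min and 4 of 8 at 4 hr, where 35% and 38.8% of all genes did so.

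None of the 8 genes was called between IL-2-REH and IL-2, where edgeR called 0.0133% of genes at 90 min and 0.0267% at 4 hr. DESeq2 called 0 of 8 at both times (background 0.0698% and 0.401%). An unadjusted p under 0.05 was reached by 1 of 8 at 90 min (Myc, background 0.993%) and 1 of 8 at 4 hr (Mxd1, background 3.72%). The log2 difference of Myc, IL-2-REH minus IL-2, was -1.29 ± 0.47 at 90 min (95% interval -2.30 to -0.28, edgeR adjusted p = 1) and -0.82 ± 0.47 at 4 hr (95% interval -1.82 to 0.18, edgeR adjusted p = 1). Narrower intervals came with the block, at -1.22 (-1.64 to -0.80, edgeR adjusted p = 0.084) and -0.78 (-1.20 to -0.36, edgeR adjusted p = 0.238), and 0 of 8 genes were called (background 0.0133% and 0.0666%). Leaving unstimulated replicate 1 out of the blocked fit changed the shared spread, the scaling and the filter (15494 genes tested in place of 15009). Myc alone then passed at 90 min (edgeR adjusted p = 0.0151, background 0.0968%). At 4 hr 0 of 8 passed (Myc edgeR adjusted p = 0.0713, background 0.549%). For Mxd1 the difference was -0.18 at 90 min (95% interval -0.60 to 0.24) and -0.61 at 4 hr (95% interval -1.03 to -0.19).

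Between 90 min and 4 hr no network gene was called with either cytokine, and edgeR called 0% of all genes in both time comparisons. Unadjusted p values under 0.05 were found for 2 of 8 with IL-2 (Max and Mxd3, background 17%) and 3 of 8 with IL-2-REH (Mxd1, Mxd3 and Mxd4, background 14.6%). DESeq2 called 0 of 8 (background 3.19%) and 1 of 8 (Mxd1, background 1.98%). The log2 difference of Mxd1, 4 hr minus 90 min, was -0.22 (IL-2) and -0.64 (IL-2-REH), with edgeR adjusted p values of 0.568 and 0.248. That of Myc was -0.62 and -0.15 (edgeR adjusted p = 0.493 and 0.895). Mxd3 was 0.420 to 0.907 RPKM at 90 min and 1.06 to 1.80 at 4 hr of IL-2, on few reads. With the block and without unstimulated replicate 1, 3 of 8 genes were called between the times of IL-2 (Myc and Mxi1 lower and Mxd3 higher at 4 hr, background 11.6%) and 2 of 8 between those of IL-2-REH (Mxd1 and Mxi1 lower at 4 hr, background 11.4%). The change over time of the IL-2-REH to IL-2 difference was called for 0 of 8 genes (background 0%) with edgeR, 0 with DESeq2 (background 0%) and 0 at an unadjusted p under 0.05 (background 0.313%).

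CD8+ T cells had 1 library per group, so their differences carry no replicate check and no test. Calls here mean more than 2-fold on the log2(RPKM + 1) scale, a scale that understates changes of low genes, among 10021 genes with a mean of at least 1 RPKM, which left out Mxd3. Myc was 39.4 RPKM in unstimulated CD8+ T cells, above all 3 unstimulated Treg libraries. It was 32.3 after IL-2 for 90 min and 70.0 after IL-2 for 4 hr, but 8.98 and 10.8 after IL-2-REH. In IL-2-REH-treated cells Myc was thus at 0.278 of its level with IL-2 at 90 min and 0.154 at 4 hr, and below unstimulated cells by -2.02 and -1.78 on the log2 scale, whereas IL-2 differed from unstimulated cells by -0.28 at 90 min and 0.81 at 4 hr.

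Mxd1 in CD8+ T cells was 5.90 RPKM unstimulated, 28.0 after IL-2 for 90 min and 11.2 after IL-2-REH for 90 min, and at 4 hr it was 9.12 and 6.35. Mxd4 was 11.6 unstimulated, 29.5 (IL-2) and 37.9 (IL-2-REH) at 90 min, and 10.6 and 16.8 at 4 hr. The levels of both genes were thus higher at 90 min than at 4 hr with either cytokine. Mxi1 was 2.70 unstimulated, 6.19 and 7.31 at 90 min and 2.59 and 3.98 at 4 hr in the same order, and Max, Mnt and Mlx stayed within 31.8 to 51.5, 9.87 to 12.4 and 10.1 to 16.96.

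Against unstimulated CD8+ T cells, 2 of 7 network genes passed 2-fold after IL-2 for 90 min (Mxd1 and Mxd4 higher), where 7.24% of genes did, and 0 of 7 after IL-2 for 4 hr, where 4.71% did. IL-2-REH gave 3 of 7 at 90 min (Mxd4 and Mxi1 higher, Myc lower, background 8.57%) and 1 of 7 at 4 hr (Myc lower, background 6.11%). The median log2 ratio of all genes in the IL-2-REH comparison at 90 min was -0.12, so ratios there are read against that shift. Between IL-2-REH and IL-2, 2 of 7 passed at 90 min (Myc and Mxd1 lower, background 0.868%) and 1 of 7 at 4 hr (Myc lower, background 2.23%). As in Tregs, Mxd4 and Mxi1 were higher with IL-2-REH than with IL-2 at both times, at ratios of 1.28 and 1.18 at 90 min and 1.60 and 1.53 at 4 hr.

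Set against Tregs in the same condition, the CD8+ library lay below all 3 Treg libraries in all 5 conditions for 2 of the 7 network genes with a mean of at least 1 RPKM (Mxd1 and Mxi1), and above them in all 5 for none. Of 10457 genes, 14.2% were below in all 5 conditions and 7.77% above. Mxd4 and Mnt were below in 4 of 5 conditions, and Myc was below in 3 and above in 1. The Treg and CD8+ libraries differed in isolation and strain, so cell type and these steps cannot be told apart.

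The balance of Myc with its repressors was summarised as Myc RPKM divided by the summed RPKM of Mxd1, Mxd3, Mxd4, Mxi1 and Mnt. In Tregs this ratio was 0.109, 0.372 and 0.379 unstimulated, 0.409, 0.957 and 0.730 after IL-2 for 90 min and 0.318, 0.662 and 0.737 after IL-2 for 4 hr. IL-2-REH gave 0.206, 0.314 and 0.260 at 90 min and 0.236, 0.468 and 0.390 at 4 hr. In each replicate number IL-2 was therefore above unstimulated cells and above IL-2-REH at both times, while for IL-2-REH at 90 min replicates 2 and 3 were below their unstimulated partners and replicate 1 above. No test was made of this ratio, which rests on values already shown. The repressors together came to 71.4 to 139 RPKM unstimulated and 98.1 to 174 in stimulated Tregs, and Mxd1 made up 18.8% to 38.4% of them unstimulated and 48.4% to 51.4% after IL-2 for 90 min.

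In CD8+ T cells the same ratio was 1.28 unstimulated, 0.427 after IL-2 for 90 min and 2.07 after IL-2 for 4 hr, with 0.130 and 0.283 after IL-2-REH. Myc exceeded the sum of its repressors in the unstimulated and the IL-2 4 hr CD8+ library, and in none of the 15 Treg libraries. At 90 min of IL-2-REH the CD8+ library had the lowest Myc level of all 20 libraries. Its repressors came to 69.2 RPKM, of which Mxd4 made up 54.7%, beside 75.7 RPKM in the CD8+ library after IL-2 for 90 min.

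**Figure D3:**
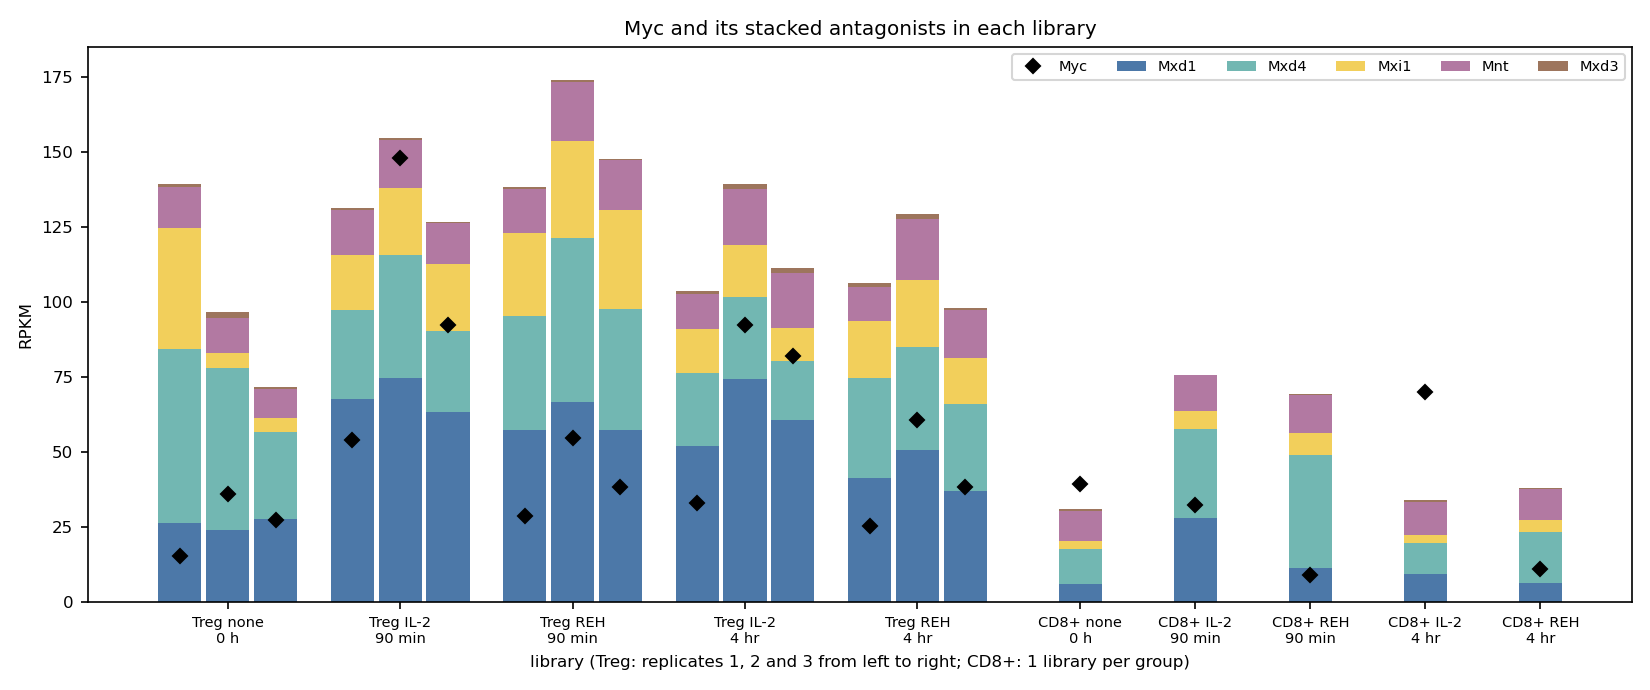
RPKM of the 5 Max-binding repressors stacked for each library, with Myc as a black diamond, in 15 Treg and 5 CD8+ libraries grouped by condition (REH stands for IL-2-REH). The diamond lies above the stack only in unstimulated CD8+ T cells (39.4 over 30.8) and in CD8+ T cells after IL-2 for 4 hr (70.0 over 33.9).

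Over the 15 Treg libraries the log2 level of Myc had a Pearson r of 0.76 with Mxd1, 0.60 with Mnt, 0.45 with Max and -0.53 with Mlx. Among 10472 genes of at least 1 RPKM on average, the 5 most alike were Ncf1 (r = 0.93), a subunit of the phagocyte NADPH oxidase, Amica1 (0.92), a junctional adhesion protein, and Pim2 (0.92), a kinase gene known to respond to STAT5. The others were Map3k8 (0.91), a kinase of the ERK pathway, and Fam169b (0.89). These libraries share treatments and replicate numbers, so the correlations describe this set and carry no p. Within each Treg group the summed macrophage or monocyte markers had the same order of replicates as Myc. Their part in these correlations was not tested. Without the 2 libraries whose Myc level was farthest from the median (IL-2 90 min replicate 2 and unstimulated replicate 1), the 5 values were 0.83 to 0.91. Among the network genes Mnt (0.72) then stood above Mxd1 (0.69), so their order rests on those libraries. In CD8+ T cells 4 of the 5 (all but Fam169b) were higher after IL-2 than after IL-2-REH at both times. Amica1 was 18.5 and 3.96 RPKM at 90 min and 32.3 and 2.82 at 4 hr, and Pim2 was 58.7 and 22.0 and then 93.9 and 28.6.

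The rest of the pathway was read from 3 lists of genes chosen from general knowledge. Of 27 other network genes and cofactors (among them Mycn, Mga, Mlxip, the Sin3 and Hdac co-repressors and the Trrap and Ruvbl1 co-activators), edgeR and DESeq2 called 0 of 27 in Tregs in every comparison, with 0 to 3 at an unadjusted p under 0.05, where 0.313% to 17.7% of all genes were. Of all genes edgeR called 0% to 2.27% and DESeq2 0% to 6.84% in these comparisons. Among those with a mean of at least 1 RPKM in CD8+ T cells, 0 of 24 passed 2-fold in every comparison, where 0.868% to 8.57% of all genes did. The list medians in Tregs were 0.10 and 0.18 after IL-2 at 90 min and 4 hr, beside -0.06 and -0.00 for all genes. With the block and without unstimulated replicate 1, 4 to 6 of 27 were called in the comparisons with unstimulated cells, a share near or below that of all genes (16.7% to 26.9%).

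Of 35 genes known to be activated by Myc (ribosome assembly, nucleotide and polyamine synthesis, amino acid transport, cell cycle), edgeR called 0 of 35 in every Treg comparison (background 0% to 2.27%). There were 2 to 5 of 35 at an unadjusted p under 0.05 against unstimulated cells, where 13.8%, 17.7%, 11.4% and 13.3% of all genes were (IL-2 at 90 min and 4 hr, then IL-2-REH). Between IL-2-REH and IL-2 there were 0 of 35 at 90 min (background 0.993%) and 6 of 35 at 4 hr (background 3.72%). DESeq2 called Hspe1, a mitochondrial chaperonin gene, lower after IL-2 for 4 hr (background 6.84%), and Cad, an enzyme of pyrimidine synthesis, and Nme1, a nucleoside diphosphate kinase, lower after IL-2-REH for 4 hr (background 4.29%). With the replicate block 1 of 35 was lower after IL-2 for 4 hr (Hspe1, -0.79, edgeR adjusted p = 0.0245), where 4.06% of all genes were lower, and 4 of 35 after IL-2-REH for 4 hr (Cad, Hspd1, Hspe1 and Rrp12), where 2.02% were. Cad fell by 1.17 there (edgeR adjusted p = 0.0131), from 3.17, 10.4 and 8.32 RPKM unstimulated to 2.58, 3.76 and 2.61. Without unstimulated replicate 1 the blocked fit called 8 of 35 higher and 3 lower after IL-2 for 90 min (background 13.9% and 13.1%) and 5 and 5 after IL-2 for 4 hr (10.4% and 10.5%). For IL-2-REH it called 8 higher and 3 lower at 90 min (13.4% and 12%) and 3 higher and 10 lower at 4 hr (8.04% and 8.65%). Odc1, the first enzyme of polyamine synthesis, was 548 RPKM in that library and 57.4 and 99.8 in unstimulated replicates 2 and 3.

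In Tregs the median log2 difference of the activated list between IL-2-REH and IL-2 was -0.05 at 90 min and -0.30 at 4 hr, beside 0.02 and 0.01 for all genes. By pair, on the log2(RPKM + 1) scale, the list medians at 4 hr were -0.07, -0.32 and -0.35, beside 0.08, 0.02 and 0.10 for all genes. In CD8+ T cells the corresponding list median was -0.75, beside 0.07 for all genes. At 90 min the list medians were -0.08, -0.09 and 0.04 in Tregs, beside -0.01, 0.01 and 0.05 for all genes. In CD8+ T cells the list median at 90 min was -0.15, beside -0.06. The smallest p in Tregs belonged to Ccnd2, a D-type cyclin, which was 60.2, 90.8 and 64.6 RPKM after IL-2 for 4 hr and 38.8, 47.6 and 30.6 after IL-2-REH. Its log2 difference was -0.95 (edgeR adjusted p = 0.903, and 0.0131 with the block and without unstimulated replicate 1, where Cad was called lower too, against 0.445% of all genes).

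Past 2-fold in CD8+ T cells were 10 of 34 activated genes, all lower, for IL-2-REH against IL-2 at 4 hr, where 1.68% of all genes were lower by that much. Ccnd2 was 132 RPKM after IL-2 against 29.7 after IL-2-REH. In the same order Srm, which makes spermidine, was 15.8 and 3.16, Slc7a5, a transporter of large neutral amino acids, 12.8 and 3.27, and Nme1 21.5 and 6.45. Against unstimulated CD8+ T cells, 16 of 34 were lower and 0 higher after IL-2-REH for 4 hr (background 4.33% and 1.78%). After IL-2 for 4 hr 0 of 34 passed in either direction (background 4.71%). At 90 min 7 of 34 were lower and 1 higher (Odc1) after IL-2-REH (background 6.11% and 2.46%), and 1 lower (Srm) and 1 higher (Odc1) after IL-2 (background 4.43% and 2.81%). There is 1 library on each side of these ratios, which compare those libraries and not the conditions.

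**Figure D4:**
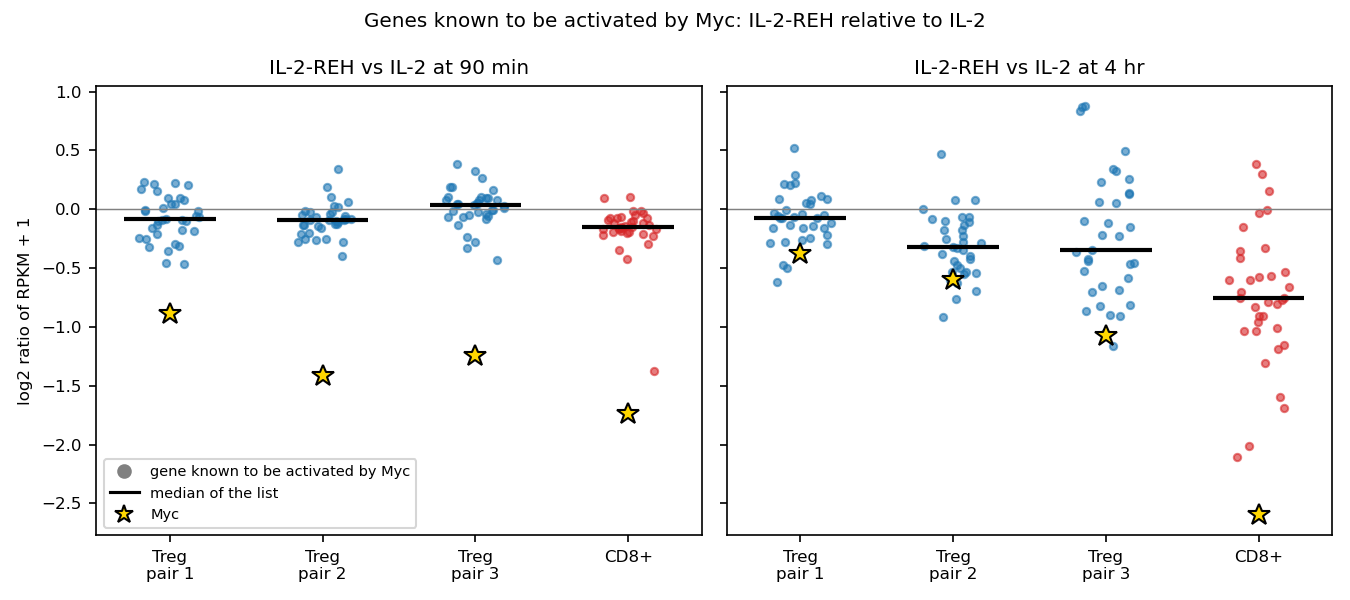
Log2 ratio of RPKM + 1, IL-2-REH relative to IL-2, of 35 genes known to be activated by Myc (points), their median (bar) and Myc itself (star), in the 3 same-numbered Treg pairs and in CD8+ T cells at 90 min and 4 hr. Myc lay below 0 in all 8 columns, and the list median at 4 hr was -0.07, -0.32 and -0.35 in Tregs and -0.75 in CD8+ T cells. The median of all genes, not drawn, was 0.08, 0.02 and 0.10 in Tregs and 0.07 in CD8+ T cells.

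Of 8 genes known to be repressed by Myc or its partners, edgeR called 0 of 8 in every Treg comparison (background 0% to 2.27%). Up to 4 of 8 had an unadjusted p under 0.05 (after IL-2 and IL-2-REH for 90 min, background 13.8% and 11.4%). DESeq2 called Ndrg1 higher after IL-2 for 90 min (background 4.54%) and Txnip lower after IL-2 for 4 hr (background 6.84%). With the block Txnip, an inhibitor of thioredoxin and of glucose uptake, fell by 1.15 after IL-2 for 90 min (edgeR adjusted p = 0.013), by 1.17 after IL-2 for 4 hr (edgeR adjusted p = 0.00594) and by 0.90 after IL-2-REH for 4 hr (edgeR adjusted p = 0.0356), where 0.46%, 4.06% and 2.02% of all genes were lower. Its levels were 146, 309 and 309 RPKM unstimulated and 71.3, 119 and 114 after IL-2 for 90 min, which did not overlap. With the block and without unstimulated replicate 1, 3 to 4 of 8 were higher against unstimulated cells (Cdkn1a, Hbp1 and Ndrg1 in all 4 comparisons, background 8.04% to 13.9%) and 1 lower (Txnip, background 8.65% to 13.1%). Ndrg1, a gene known from hypoxia and differentiation, was 35.1 RPKM in unstimulated replicate 1 and 7.41 and 6.00 in replicates 2 and 3, and 59.9, 65.4 and 66.9 after IL-2 for 90 min. In CD8+ T cells 2 of 7 (Hbp1 and Ndrg1) passed 2-fold higher after IL-2 for 90 min (background 2.81%) and after IL-2-REH at 90 min (2.46%) and 4 hr (1.78%). Gadd45a was lower after IL-2 for 4 hr (background 3.4%) and Txnip after IL-2-REH for 90 min (6.11%). Between IL-2-REH and IL-2 0 of 7 measured members of this list passed (background 0.868% at 90 min and 2.23% at 4 hr).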

How the data were processed

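RNA was sequenced by the authors as single-end 50 bp reads, mapped to mm10 with Bowtie2 2.2.6 and TopHat2 2.1.1 (versions from the submitters' processing notes), and uniquely mapped reads on exons were counted. The deposited tables hold raw read counts and RPKM per RefSeq transcript, both as made by the authors. Each of 23992 symbols was represented by its transcript with the highest read total. The counts of 15 Treg libraries were fitted together in edgeR 4.0.16 (R 4.3.3, TMM, filterByExpr, quasi-likelihood test, 1 mean per group), with Benjamini-Hochberg adjustment over 15009 genes and a threshold of 0.05. Alternatives were DESeq2 1.42.0, a replicate block, other scaling and filters, leaving out replicates, and limma 3.58.1 at a pseudocount of 1 or 0.1 RPKM (log2 scale). CD8+ ratios used RPKM + 1, without a test. Fits were checked on simulated counts that held no replicate effect and no library standing apart, so the check does not cover those features of the data. Levels are RPKM and depth was 20201392 to 63903764 reads on genes.

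Replicate numbers come from the titles. All 30 correlations of deviations from the group mean between same-numbered Treg samples were above 0.1 (0.108 to 0.828, mean 0.543), so the numbers were taken to pair the samples. Of the 60 pairs with different numbers, 9 were above 0.1 as well, up to 0.336. The same-numbered and different-numbered values thus overlapped, and the blocked fits rest on this choice. The mean of -0.26 for 60 pairs of different numbers largely follows from subtracting the group means and is no separate sign of pairing. The members, gene lists and tests were chosen with earlier results of these data known. All 8 members are named, and of each list the called genes with the largest changes or else the 2 with the smallest p per comparison were eligible to be named with values. Odc1, the CD8+ values of the genes most like Myc and the genes named by DESeq2 or the block were chosen after their values were seen. Genes most like Myc were the 5 with the highest Pearson r. There were 0 pairs of identical libraries. Promoters are from RefSeq and gene positions from the GENCODE annotation of GRCm38.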

Additional observations from a re-analysis of the deposited data

Results flagged for a closer look

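For 5 log2 ratios of RPKM + 1 against unstimulated cells the single CD8+ library moved one way and all 3 same-numbered Treg pairs the other way. Myc in CD8+ T cells was at -0.28 after IL-2 for 90 min (1.76, 2.01 and 1.73 in the Treg pairs), at -2.02 after IL-2-REH for 90 min (0.87, 0.59 and 0.49) and at -1.78 after IL-2-REH for 4 hr (0.69, 0.74 and 0.48). Mxd4 in CD8+ T cells was at 1.27 after IL-2 for 90 min (-0.95, -0.40 and -0.11) and at 0.50 after IL-2-REH for 4 hr (-0.78, -0.64 and -0.01, the last close to no change). With 1 CD8+ library per condition these differences between cell types were not tested, and all share the unstimulated libraries.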

How the results depend on the processing

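The counts of network genes called moved with the setting. After IL-2 for 90 min the count was 1 and became 2 with the replicate block, with DESeq2 or with a mean RPKM of at least 1, 0 to 4 when replicates were left out, and 5 with the block and without unstimulated replicate 1. After IL-2 for 4 hr the count was 1 and became 3 with the replicate block or DESeq2, 0 with only the groups compared, 0 to 5 when replicates were left out and 5 with the block and without unstimulated replicate 1. After IL-2-REH for 90 min the count was 1 and became 0 with limma at either pseudocount or with only the groups compared, 0 to 4 when replicates were left out and 5 with the block and without unstimulated replicate 1. After IL-2-REH for 4 hr the count was 0 and became 1 with DESeq2, 0 to 3 when replicates were left out and 5 with the block and without unstimulated replicate 1. For IL-2-REH against IL-2 at 90 min it was 0 and became 1 with the block and without unstimulated replicate 1. From 90 min to 4 hr it was 0 and became 3 for IL-2 and 2 for IL-2-REH under that same fit, 1 with IL-2-REH under DESeq2, and 0 to 1 with IL-2-REH when replicates were left out. The counts moved with the whole table: without replicate 1 in all groups 10.7% to 17.3% of all genes were called against unstimulated cells, and without replicate 2 or 3 at most 0.0719%. Without unstimulated replicate 1 alone the share was 6.93% to 12.9%, and 16.7% to 26.9% with the block as well. DESeq2 called 0.867% to 6.84% of all genes, and the replicate block 0.213% to 6.92%. A mean RPKM of at least 1 gave 0.134% to 3.57%, limma at most 2.05% and only the groups compared at most 0.226%. The replicate block changed no other call of a network gene. Without unstimulated replicate 1, chosen for this after its values were seen, Mxi1 after IL-2 for 4 hr turned from -0.26 to 1.74, to 1.70 without replicate 1 in all groups and to 1.82 with the block, and its values with replicates left out ran from -0.79 to 1.74.

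In CD8+ T cells a limit of 0.5 in place of 1 on the log2 scale moved the counts to 4, 2, 5 and 2 against unstimulated cells (IL-2 at 90 min and 4 hr, then IL-2-REH at 90 min and 4 hr) and to 2 for IL-2-REH against IL-2 at 4 hr. The count of 2 network genes outside the Treg range became 4 when 4 of 5 conditions were asked, and 2 to 4 when a Treg replicate was left out. Of 1368 alternative values, 1299 kept their side and direction, 54 passed the threshold only then, 12 no longer passed and 3 reversed. With 3 libraries per Treg group, 1 of them standing apart, and 1 CD8+ library per group, missing calls do not show that values were equal.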

Other observations

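Among pairs of network genes over the 15 Treg libraries the strongest inverse relation was between Mnt and Mlx (Pearson r = -0.87, also -0.87 without unstimulated replicate 1), and Mxd1 went with Mxi1 at 0.58, or 0.82 without that library. These are descriptions of libraries that share treatments and carry no p. Of the 27 genes with a listed promoter among those known to be activated by Myc, 9 (33.3%) held CACGTG. The word was also held by 2 of 24 other network genes and cofactors (8.33%) and 1 of 7 genes known to be repressed by Myc or its partners (14.3%).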
